A study of Mus musculus with 3 samples.

Results

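The genes described here make and load major histocompatibility complex (MHC) class I molecules: the heavy chain genes H2-K1, H2-D1 and H2-T23, the light chain gene B2m, the peptide transporter genes Tap1 and Tap2, the loading factor gene Tapbp, and the immunoproteasome subunit genes Psmb8 and Psmb9. They were chosen by symbol, as 9 of 23456 genes named on a mouse Agilent array, and all 11 of their non-control probes, printed on 30 spots, were followed. Each of 3 two-colour arrays set dorsal cortex RNA from a wild-type pup (Cy3) against that from a Brpf1-deficient pup (Cy5), both untreated and killed at postnatal day 4. Brpf1 encodes a scaffold of histone acetyltransferase complexes. How the gene was inactivated, and in which cells, is not given in the sources used here.

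A class I molecule is a heavy chain held at the cell surface by beta-2-microglobulin, with a short peptide in its groove that is read by CD8 T cells and natural killer cells. The peptides are cut from cytosolic proteins by the proteasome, pumped into the endoplasmic reticulum by the TAP transporter and fitted to the heavy chain with the help of tapasin. Interferons raise the transcription of most of these genes, and in the developing brain neurons also make class I molecules, which have been studied for their part in the pruning of synapses.

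The gene set was put together with results of this same comparison known, and 1 of the 11 probes, the second Psmb9 probe, could be named only through the authors' deposited table, which lists spots with a p-value of up to 0.458. The values of the member genes are therefore a description. No p-value from the fit made here is given for them, and where the text says that this fit across all probes called a member, this supports nothing. B2m, with a p-value of 0.450 in the authors' deposited table, lies just inside that limit, and the Tapbp probe is not listed in it. Each ratio is log2 of Cy5 over Cy3, so that a positive value means brighter in the channel labelled Brpf1-deficient. Signs here are the reverse of those in the authors' deposited table. Its direction is not stated, so the reversal alone does not conflict with the labels. The 10 listed member probes have log2 fold changes of -0.65 to -0.14 there. Brpf1 has 0.77 ± 0.17 (SD, n = 3 arrays) here and -0.80 there. Brpf1 was thus brighter in the channel labelled Brpf1-deficient, against the label, although it is not known here whether its single probe lies in the deleted part. The genotype behind each direction is therefore unsettled, and all results are given by channel.

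Dyes were not swapped, so a dye effect on a probe and the genotype cannot be told apart. Over the 3 arrays 59.9% to 61.0% of spots that are no controls exceeded background clearly in Cy3, and 57.9% to 58.2% did so in Cy5. With so few arrays, their number limits how precise any value is. The median log2 ratio of the 32983 probes that passed the filter on dim probes was -0.01. In a limma fit over these probes 16.8% passed an adjusted p of 0.05. By direction, 7.48% had the brighter signal in Cy5 and 9.37% had it in Cy3. All 13 cortical neuron markers and all 10 astrocyte markers passed that filter, as the labelled tissue would have. Array 1 stood apart in Emx1, a homeobox gene of the dorsal cortex singled out after its values were seen, with log2 ratios of 0.65 on array 1 and of -2.72 and -2.65 on arrays 2 and 3. Without array 1 the median of the member probes given below was 0.35. In bulk tissue, fewer cells of a type and less RNA per cell cannot be told apart. Whether the pairs come from separate litters is not in the labels, and p-values measure only the spread between these 3 pairs.

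The promoters of the members are shown first, because class I heavy chain genes are known to share control elements and because Tap1 and Psmb9 are read in opposite directions from 1 short stretch. Of the 9 genes, 8 matched a promoter in RefSeq (GRCm38.p6), and Tap2 had no entry. Each run below ends at the base before the gene's start and is written 5′ to 3′ on the gene's strand. H2-K1 lies at chr17:34000348-34000597 (minus strand, the first of its starts in the table), H2-D1 at chr17:35262844-35263093 (plus), H2-T23 at chr17:36032702-36032951 (minus), B2m at chr2:122147437-122147686 (plus) and Psmb8 at chr17:34197945-34198194 (plus). The last run is the whole stretch between the starts of Psmb9 (minus) and Tap1 (plus), chr17:34187331-34187555, read on the strand of Tap1. Capitals mark GGGATTCCC (from the kappa B site of class I genes), GAAANNGAA (a form of the core of the interferon-stimulated response element) and TTCNNNGAA (the gamma-activated site), each searched on both strands.
H2-K1: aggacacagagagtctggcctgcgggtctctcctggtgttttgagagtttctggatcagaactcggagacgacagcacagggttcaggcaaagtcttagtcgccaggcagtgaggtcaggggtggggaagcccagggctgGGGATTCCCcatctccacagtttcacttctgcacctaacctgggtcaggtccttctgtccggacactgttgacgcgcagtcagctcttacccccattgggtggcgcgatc
H2-D1: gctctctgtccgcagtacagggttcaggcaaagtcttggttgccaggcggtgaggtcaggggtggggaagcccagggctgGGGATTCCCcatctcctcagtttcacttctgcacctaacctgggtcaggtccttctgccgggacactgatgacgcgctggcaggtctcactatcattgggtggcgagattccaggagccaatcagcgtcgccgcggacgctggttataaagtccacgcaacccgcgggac
H2-T23: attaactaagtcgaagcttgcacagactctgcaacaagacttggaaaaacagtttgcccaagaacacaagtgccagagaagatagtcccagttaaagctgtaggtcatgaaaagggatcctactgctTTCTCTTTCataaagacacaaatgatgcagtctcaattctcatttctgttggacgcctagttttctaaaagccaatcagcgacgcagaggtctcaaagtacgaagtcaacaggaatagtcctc
B2m: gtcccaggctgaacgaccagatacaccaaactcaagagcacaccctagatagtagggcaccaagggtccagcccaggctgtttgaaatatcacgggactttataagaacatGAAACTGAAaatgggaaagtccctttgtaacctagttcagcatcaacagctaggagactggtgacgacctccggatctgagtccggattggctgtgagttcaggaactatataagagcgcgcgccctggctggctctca
Psmb8: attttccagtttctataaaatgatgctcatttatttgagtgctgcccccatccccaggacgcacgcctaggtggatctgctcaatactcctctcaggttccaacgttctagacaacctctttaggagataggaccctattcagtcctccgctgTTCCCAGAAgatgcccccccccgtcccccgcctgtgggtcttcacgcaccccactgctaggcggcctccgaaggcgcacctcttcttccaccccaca
Tap1 and Psmb9: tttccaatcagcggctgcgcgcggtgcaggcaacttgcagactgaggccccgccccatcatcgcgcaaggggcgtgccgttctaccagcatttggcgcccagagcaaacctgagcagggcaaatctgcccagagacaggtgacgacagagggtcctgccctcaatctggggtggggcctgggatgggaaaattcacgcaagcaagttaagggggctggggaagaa

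H2-K1 and H2-D1 shared an unbroken run of 47 identical bases that holds the kappa B letters, which start 110 bases before the start of H2-K1 and 170 before that of H2-D1. Those letters were present in 0.301% of the 32851 promoter windows of 250 bases in the table, and in 2 of the 8 member windows. The form GAAANNGAA of the response element core was found in H2-T23 and B2m, 123 and 139 bases before their starts. It was found in 7.13% of all windows. Other forms of this core were not searched. Whether H2-K1, H2-D1 and the other members without these letters hold an interferon response element was therefore not tested. The gamma-activated letters were found in Psmb8, 97 bases before its start, and in 7.02% of all windows. CCAAT, on either strand and not capitalised, was found in 7 of the 8 member windows and in 33.8% of all. The windows of Tap1 and Psmb9 are both counted for the same bases, which lie 222 bases before the start of Tap1 and 8 before that of Psmb9. The shared stretch of Tap1 and Psmb9, 225 bases long, holds none of the capitalised letters.

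Across the 10 member probes that passed the filter, 9 had a mean ratio above 0, and the median was 0.38, a 1.30-fold difference. The exception was Tapbp. Probe means ran from -0.02 to 0.61. The medians of these probes were 0.41, 0.22 and 0.49 on arrays 1, 2 and 3. In 7 probes the ratio was above 0 on all 3 arrays, beside 28.2% of all probes tested. In 7 probes of 6 genes all 3 Cy5 signals lay above all 3 Cy3 signals, beside 15.7% of all probes. The fit placed 6 member probes past its threshold, all brighter in Cy5, where 7.48% of all probes were. Those are the 2 probes of H2-K1 and the probes of H2-D1, H2-T23, Tap2 and Psmb8. Because the genes were chosen with this comparison known, nothing is read from these counts. Without array 3 the number was 3, without array 1 it was 5 and without array 2 it was 7.

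**Figure D1:**
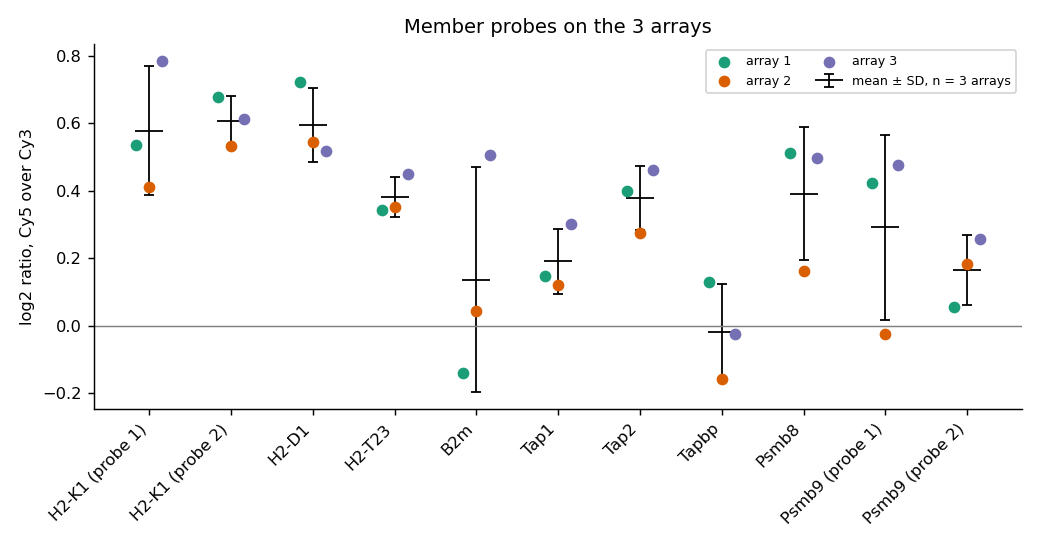
Log2 ratio of Cy5 over Cy3 (y axis) of the 11 member probes (x axis) on arrays 1 to 3 (coloured points), with the mean and SD over the 3 arrays in black. H2-K1, H2-D1 and H2-T23 lie above 0 on every array, while B2m and Tapbp have points on both sides of 0; the second Psmb9 probe did not pass the filter on dim probes.

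The heavy chains of the classical class I molecules, the products of H2-K1 and H2-D1, held the largest ratios among the members. H2-K1 has a probe printed on 10 spots and another on 1 spot. The first had normalized log2 signals of 10.31, 10.41 and 10.13 in Cy3 on arrays 1, 2 and 3, and of 10.84, 10.82 and 10.91 in Cy5. Every Cy5 signal lay above every Cy3 signal, and the channels came closest on array 2. Its log2 ratios were 0.54, 0.41 and 0.79, with a mean of 0.58 ± 0.19 (SD, n = 3 arrays), a 1.49-fold difference. The second H2-K1 probe had ratios of 0.68, 0.53 and 0.61, with a mean of 0.61 ± 0.07. Both probes were lowest on array 2, but array 3 was the highest for the first and array 1 for the second.

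H2-D1 had log2 signals of 12.17, 12.02 and 12.06 in Cy3 and of 12.89, 12.57 and 12.58 in Cy5. The channels did not overlap. Its ratios were 0.72, 0.54 and 0.52, with a mean of 0.59 ± 0.11 (SD, n = 3 arrays), a 1.51-fold difference. The means of H2-D1 and of both H2-K1 probes differed by less than the SD of H2-D1 between arrays. H2-T23 encodes Qa-1, a nonclassical heavy chain that presents leader peptides of other class I chains to CD94/NKG2 receptors. It had signals of 11.28, 11 and 11 in Cy3 and of 11.62, 11.35 and 11.45 in Cy5. The lowest Cy5 signal lay above the highest Cy3 signal by less than the range within either channel. The ratios were 0.34, 0.35 and 0.45, with a mean of 0.38 ± 0.06, the smallest SD among the members.

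B2m encodes the light chain that all these heavy chains need to reach the surface. Its log2 signals were 13.60, 13.80 and 13.55 in Cy3 and 13.47, 13.84 and 14.06 in Cy5. The channels overlapped. The ratio was below 0 on array 1 (-0.14), near 0 on array 2 (0.04) and above 0 on array 3 (0.51), which gives a mean of 0.14 ± 0.33 (SD, n = 3 arrays). Without array 3 the mean was -0.05, and with median centring in place of loess it was 0.33. Of the 10 probes, B2m had the largest SD, and on array 1 it was below 0 while H2-K1 and H2-D1 were at or above 0.54.

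**Figure D2:**
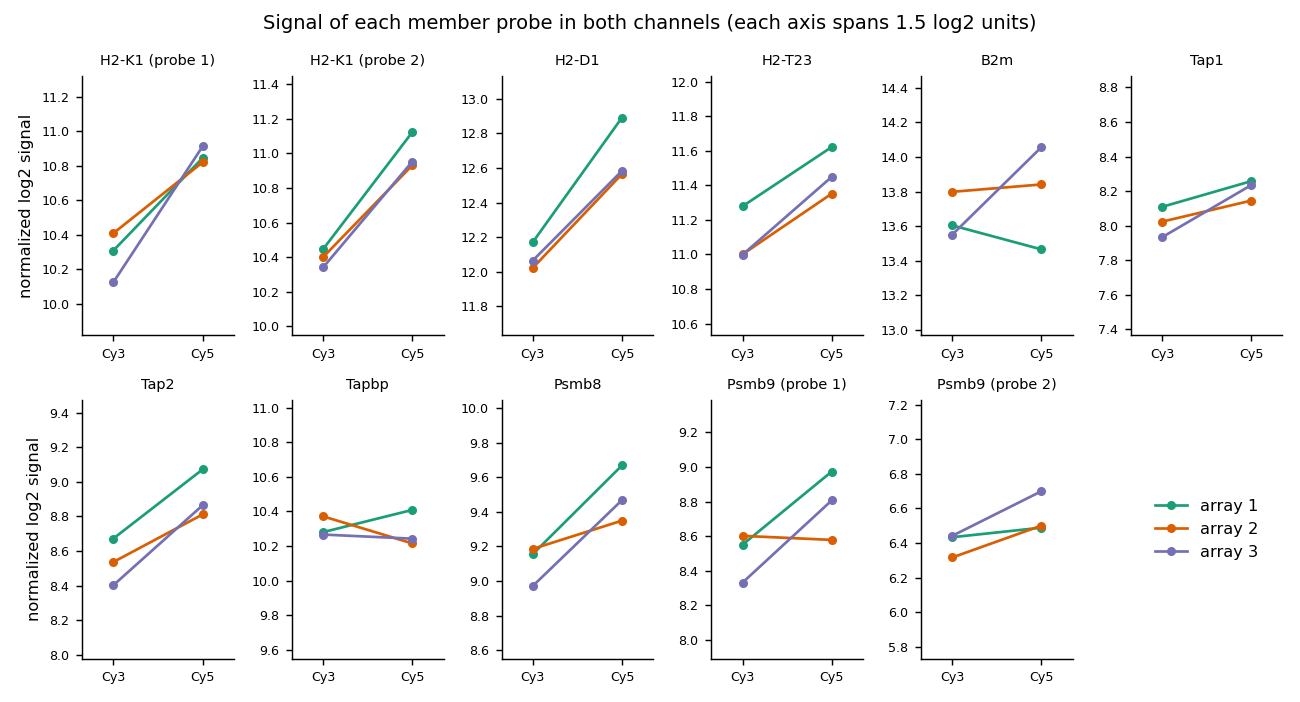
Normalized log2 signal (y axis) in Cy3, labelled wild type, and Cy5, labelled Brpf1-deficient (x axis), with 1 panel per member probe and 1 line per array. Lines rise on every array for H2-K1, H2-D1, H2-T23, Tap1, Tap2 and Psmb8, while B2m, Tapbp and the first Psmb9 probe have lines that run both ways.

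Tap1 and Tap2 encode the subunits of the transporter that carries peptides into the endoplasmic reticulum. Tap2 had log2 signals of 8.67, 8.54 and 8.40 in Cy3 and of 9.07, 8.81 and 8.86 in Cy5. Its ratios were 0.40, 0.28 and 0.46, with a mean of 0.38 ± 0.10 (SD, n = 3 arrays), a 1.30-fold difference without overlap of the channels. Tap1, measured on 10 spots per array, had signals of 8.11, 8.02 and 7.93 in Cy3 and of 8.26, 8.14 and 8.23 in Cy5. Its ratios of 0.15, 0.12 and 0.30, with a mean of 0.19 ± 0.10, were below those of Tap2 on each array. The fit did not call Tap1. Tapbp encodes tapasin, which bridges the transporter and the empty heavy chain. It had signals of 10.28, 10.37 and 10.27 in Cy3 and of 10.41, 10.22 and 10.24 in Cy5. With ratios of 0.13, -0.16 and -0.02, and a mean of -0.02 ± 0.14, it overlapped between channels and lay near the median of all probes.

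Psmb8 and Psmb9 encode catalytic subunits that replace constitutive ones in the immunoproteasome and change which peptides are cut. Psmb8 had log2 signals of 9.16, 9.19 and 8.97 in Cy3 and of 9.67, 9.35 and 9.47 in Cy5. The channels did not overlap, but array 2 was well below the others, with ratios of 0.51, 0.16 and 0.50 and a mean of 0.39 ± 0.20 (SD, n = 3 arrays). The first Psmb9 probe had signals of 8.55, 8.60 and 8.33 in Cy3 and of 8.97, 8.58 and 8.81 in Cy5. It gave ratios of 0.42, -0.02 and 0.48, with a mean of 0.29 ± 0.27 (0.46 with the scanner software's processed signals). Arrays 1 and 3 were high and array 2 was low in both Psmb8 and Psmb9. The second Psmb9 probe was not well above background in either channel on any array, so it has no measured ratio (its computed values were 0.06, 0.18 and 0.26). Tap1 and Psmb9, whose starts lie on either side of the stretch printed above, both had their lowest ratio on array 2 and their highest on array 3, but array 1 lay near array 2 for Tap1 and near array 3 for Psmb9.

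The probes of H2-K1 and Tap1 are printed on 10 spots of each array and that of B2m on 2, which shows the noise of single spots. Spots of an array share its labelling and hybridisation, so their SD does not hold the error of the array. For H2-K1 the SD between spots was 0.07, 0.05 and 0.06 on arrays 1, 2 and 3, near the median of 0.07, 0.06 and 0.06 over the 399 probes printed 10 times. The 10 spots on array 3 ran from 0.72 to 0.91 and did not overlap with those on array 1 (0.45 to 0.69) or array 2 (0.31 to 0.48). All 30 values of this probe were above 0. Between arrays this probe had an SD of 0.19, while the second H2-K1 probe had an SD of 0.07 over the same arrays and another order of them. For Tap1, a dimmer probe, the SD between spots was 0.09, 0.13 and 0.11, about the SD of 0.10 between arrays, and the spots of the arrays overlapped. On array 2, 9 of the 10 Tap1 spots were above 0. The 2 spots of B2m had -0.14 and -0.14 on array 1, 0.02 and 0.07 on array 2, and 0.50 and 0.51 on array 3.

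**Figure D3:**
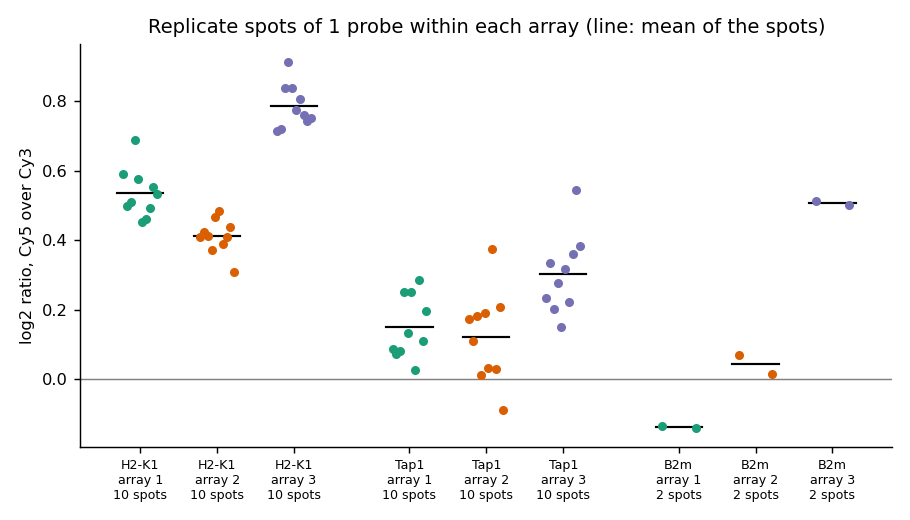
Log2 ratio of Cy5 over Cy3 (y axis) of each spot of the repeated probes of H2-K1, Tap1 and B2m on each array (x axis); points are spots and lines their mean. The H2-K1 spots on array 3 lie above all those on arrays 1 and 2, the Tap1 spots of the arrays overlap, and the B2m spots lie close together within each array.

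Other class I genes were taken from a list of 46 heavy chain genes and relatives, of which 38 were on the array and 21 passed the filter, each represented by its brightest probe. This list and those below were also chosen with earlier results of these data known. Their counts and p-values are therefore a description too. In the fit over 23306 genes (16871 with a name and 6435 known by accession or probe alone), 9 of the 21 were brighter in Cy5, 1 in Cy3 and 11 did not pass, beside shares of 7.95% toward Cy5 and 9.18% toward Cy3 over all genes. The median was 0.18, beside -0.01 over all genes. Of the 9, 4 had ratios near those of H2-K1. These were H2-Q2 at 0.63 ± 0.04 (SD, n = 3 arrays, limma adjusted p = 0.00405), H2-Q7 at 0.62 ± 0.11 (0.00557), the transcript H2-K2, a neighbour of H2-K1, at 0.62 ± 0.10 (0.00557) and H2-Q8 at 0.61 ± 0.09 (0.00532). The second H2-Q2 probe had 0.45 and the second H2-K2 probe 0.62. These genes resemble each other in sequence, and the authors' deposited table itself assigns the H2-Q7 probe to 2 genes, H2-Q7 and H2-Q9, and the H2-Q8 probe to H2-Q8 and H2-Q6. How far each probe reads its own gene alone was not tested, so the similar values of H2-K1, H2-D1 and the H2-Q genes may not be independent of each other.

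The other class I genes brighter in Cy5, most of them named after their values were seen to complete the count, were H2-Bl at 0.53 ± 0.13, H2-M2 at 0.39 ± 0.08, H2-Q10 at 0.29 ± 0.02, H2-M3 at 0.47 ± 0.37 and Raet1b, a ligand of the NKG2D receptor, at 0.33 ± 0.20 (SD, n = 3 arrays, limma adjusted p between 0.00974 and 0.0493). A second probe of H2-M2 and of H2-Q10 was not well above background on any array. Cd1d1, which presents lipids instead of peptides, was the gene brighter in Cy3, at -0.27 ± 0.10 (limma adjusted p = 0.0468). Not called were H2-T9 (0.18 ± 0.08), whose probe the authors' deposited table assigns to H2-T22, H2-T10 (0.19 ± 0.16), H2-Q1 (-0.01 ± 0.04), H2-T24 (-0.11 ± 0.22) and H2-Q4 (-0.26 ± 0.30, but 0.33 with median centring in place of loess). Without array 3, 5 of the list were called, namely H2-Q2, H2-Q7, H2-Q8, H2-K2 and H2-Bl, and the value of H2-M3 was 0.26. With the scanner software's own processed signals the number was also 5.

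MHC class II molecules present peptides from outside the cell and are made mainly by professional antigen-presenting cells. Of 13 listed genes, 10 passed the filter. The limma fit called 4 brighter in Cy5 and none in Cy3 (at an unadjusted p of 0.05, 7 and 0), and the median was 0.26. H2-Ab1 had ratios of 0.67, 0.56 and 0.88 and a mean of 0.70 ± 0.16 (SD, n = 3 arrays, limma adjusted p = 0.00532), larger than the mean of any class I member. Its second probe had 0.54. H2-Aa had 0.50 ± 0.09, H2-Eb1 0.50 ± 0.10 and the peptide exchange factor gene H2-DMa 0.39 ± 0.15 (limma adjusted p between 0.0095 and 0.0242). Cd74, the invariant chain, had 0.26 ± 0.15 and did not pass. Without array 2, 7 were called, and without array 3, or with the processed signals, 3 were called, H2-DMa no longer among them.

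**Figure D4:**
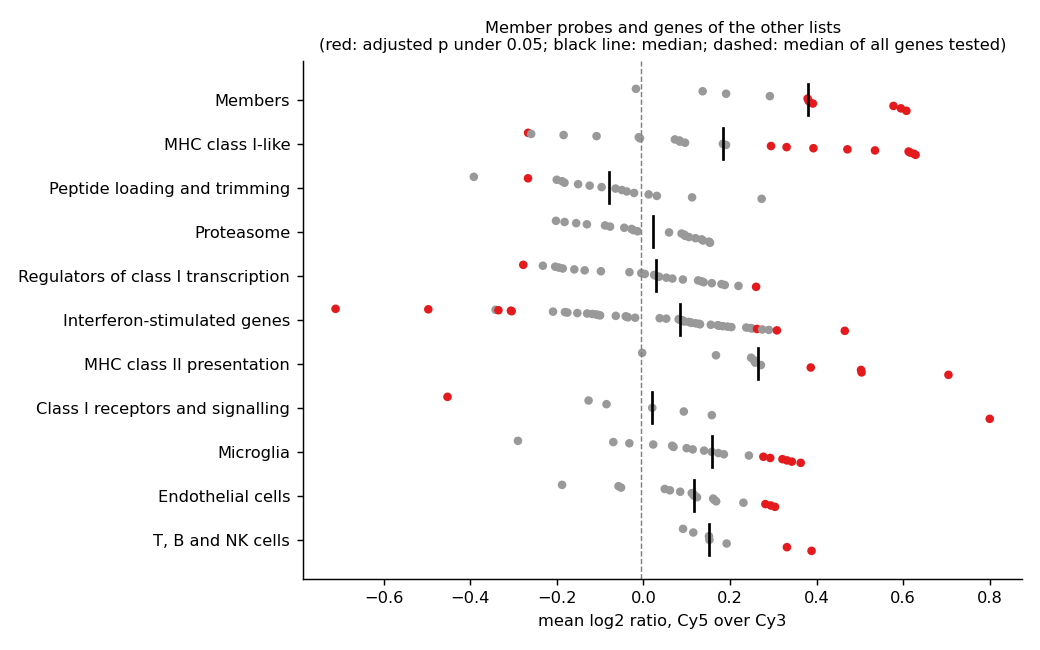
Mean log2 ratio of Cy5 over Cy3 (x axis) of the 10 member probes that passed the filter and of the genes of 10 other lists (y axis, 1 point per probe or gene, sorted within a row). Red points passed an adjusted p of 0.05, black lines are medians and the dashed line is the median of all genes tested; the medians of the members (0.38), class II (0.26) and class I relatives (0.18) lie furthest right.

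The remaining steps of peptide supply were mostly measured in bright probes. The probes of Erap1 and Lnpep, of the loading and trimming list, were dim (mean log2 intensity 7.10 and 7.38). Of 20 proteasome genes other than Psmb8 and Psmb9, the limma fit called 0 in either direction (at an unadjusted p of 0.05, 0 brighter in Cy5 and 1 in Cy3), and the median was 0.02. Psmb10, the third catalytic subunit of the immunoproteasome, had 0.15, 0.10 and 0.15, with a mean of 0.13 ± 0.03 (SD, n = 3 arrays, limma adjusted p = 0.187), and Psme1, of the interferon-inducible activator, had -0.08 ± 0.09 (0.18 with median centring). No probe was named as Psme2 with the tables used here. Of 16 genes of peptide loading and trimming, limma called 1 brighter in Cy3 and none in Cy5 (at an unadjusted p of 0.05, 4 and 1), with a median of -0.08. This was Pdia3, the oxidoreductase of the loading complex, at -0.27 ± 0.08 (limma adjusted p = 0.0439), which turned to 0.13 with median centring and was not called when any 1 array was left out, while the chaperone gene Calr had 0.01 ± 0.11. Median centring of each array in place of loess called 12 proteasome and 4 loading genes brighter in Cy5, so the direction of these bright probes rests on the scaling.

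Regulators of class I transcription gave 1 call in each direction among 25 tested, with a median of 0.03. Irf1, an interferon-induced activator of class I promoters, had ratios of 0.27, 0.16 and 0.35 and a mean of 0.26 ± 0.10 (SD, n = 3 arrays, limma adjusted p = 0.0492). Jak1, a kinase of interferon receptors, had -0.28 ± 0.13 (limma adjusted p = 0.0491). Neither Irf1 nor Jak1 was called when any 1 array was left out, without background correction, or with the scanner software's processed signals. Without array 2, or without array 3, no gene of this list was called. Nlrc5, the transactivator of class I genes, had 0.02, -0.21 and 0.17 and a mean of 0.00 ± 0.19. Its probe was dim (mean log2 intensity 7.39) and did not exceed background clearly in both channels on all arrays, so this value says little about Nlrc5. Among 48 interferon-stimulated genes, 3 were called toward Cy5 and 5 toward Cy3, 16.7% of the list beside 17.1% of all genes, with a median of 0.09. Bst2, which tethers virus particles to the membrane, had 0.46 ± 0.12 and the ubiquitin-like Isg15 0.31 ± 0.13, whereas Ifit2 had -0.71 ± 0.17 and Ifitm2 -0.33 ± 0.17 (limma adjusted p between 0.00559 and 0.0394). Without array 3, 1 was brighter in Cy5 and 2 in Cy3.

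Receptors that read class I molecules were mostly dim, and 7 of 15 listed genes passed the filter. Pirb, a neuronal receptor for class I molecules studied in cortical plasticity, had ratios of 0.85, 0.85 and 0.70 and a mean of 0.80 ± 0.09 (SD, n = 3 arrays, limma adjusted p = 0.00177). Its probe had a mean log2 intensity of 17.39, and of the 837 probes above 16 on that scale 81.7% had a ratio above 0. With the scanner software's processed signals the Pirb value was 0.29 (limma adjusted p = 0.0813). The other 2 Pirb probes did not pass the filter on dim probes and had 0.02 and -0.12. Klra1, of the Ly49 receptor family, had -0.45 ± 0.34 (limma adjusted p = 0.0463). It was not called without array 1, where its value was -0.26, nor without array 3.

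Markers of other cells that carry class I and class II molecules were set beside the members. Over all genes the limma fit called 17.1%, with 7.95% toward Cy5. Among 19 microglia markers, with a median of 0.16, 8 were brighter in Cy5 and 1 in Cy3 at an unadjusted limma p of 0.05. The fit called 6 (31.6%), all with the brighter signal in Cy5. They include the lysosomal membrane gene Laptm5 (0.29 ± 0.10), the perforin-like Mpeg1 (0.34 ± 0.19), the Fc receptor chain gene Fcer1g (0.28 ± 0.09) and the complement gene C1qb (0.36 ± 0.22). The summed level of the whole microglia list, in units of 1000 normalized signal, ran from 97.3 to 104 in Cy3 and from 96.6 to 105 in Cy5, which overlap. Without array 3 none of the microglia markers was called, and without array 1 there was 1.

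Among 17 endothelial markers, with a median of 0.12, 5 were brighter in Cy5 and 1 in Cy3 at an unadjusted limma p of 0.05. The fit called 3 (17.6%, beside 17.1% of all genes), again with the brighter signal in Cy5. These were Egfl7 (0.29 ± 0.10), the tight junction gene Cldn5 (0.30 ± 0.14) and the receptor kinase gene Tie1 (0.28 ± 0.13). The summed endothelial level ran from 84.3 to 86.2 in Cy3 and from 94.1 to 105 in Cy5, without overlap, though none of the 3 was called without array 1 or without array 3. Of 16 markers of T, B and natural killer cells, 7 passed the filter and 2 of these (28.6%) were brighter in Cy5. They were the T cell kinase genes Zap70 (0.39 ± 0.15) and Lck (0.33 ± 0.14). Lck was not called without array 1 or without array 3. The other 5 that passed the filter, Cd3e (0.09 ± 0.20), Cd4 (0.15 ± 0.17), Cd79b (0.19 ± 0.05), Nkg7 (0.15 ± 0.08) and Gzma (0.12 ± 0.15), were not called. The summed level, in which bright probes weigh most, was 4.74 to 5.38 in Cy3 and 5.60 to 7.13 in Cy5. The defining genes Cd3d, Cd3g, Cd8a, Cd79a, Ms4a1, Ncr1, Klrb1c and Gzmb were among those that did not pass the filter on dim probes.

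Of 12 meningeal and fibroblast markers, 1 was brighter in Cy3, and the summed level was 88.5 to 93.4 in Cy3 and 79.9 to 87.8 in Cy5. Of the 13 cortical neuron markers, 5 were called toward Cy5 and 2 toward Cy3 (53.8%, beside 17.1% of all genes), with a median of 0.09. This was the largest share called among the cell type lists. They were led by the nuclear receptor gene Rorb at 1.04 ± 0.05 (SD, n = 3 arrays, limma adjusted p = 0.000444). Of the 10 astrocyte markers, 1 was called toward Cy5 and 2 toward Cy3 (30%), with a median of -0.06. Without array 3 the neuron counts were 1 and 0. The summed levels of cortical neuron markers (239 to 250 against 246 to 253) and astrocyte markers (204 to 220 against 211 to 235) overlapped between the channels. The part of cell composition in the ratios of the class I genes was not tested.

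All members except B2m, which is on chromosome 2, lie in the major histocompatibility region of chromosome 17, so the genes between Tapbp and H2-T23 were set beside them in the order of the RefSeq gene table (GRCm38.p6, used for names and order). Of 182 annotated genes between these ends that are no member, 96 were tested, 17 were brighter in Cy5 (17.7%) and 4 in Cy3, with a median of 0.10. Of 14 tested genes with an H2 symbol, 8 passed the threshold, all with the brighter signal in Cy5. These 8 are genes already counted, by the same probes, in the class I and class II lists above, so they add no further calls. The median of the 14 was 0.34. The 82 other genes gave 9 calls toward Cy5 (11%) and 4 toward Cy3, with a median of 0.09, beside the shares over all genes given above. Ly6g6e, a lymphocyte antigen 6 family gene of this region, had the largest called ratio among them, 0.79 ± 0.03 (SD, n = 3 arrays, limma adjusted p = 0.00146), and was singled out after its value was seen.

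Psmb9, Tap1, Psmb8 and Tap2 are neighbours within the class II part of the region. In the run of 12 annotated genes from H2-DMa to H2-Eb1, which was picked after the values were seen and has no test, 10 were measured. All 10 had a mean ratio above 0, from 0.19 to 0.70. The 6 of them that are no member all belong to the class II list above. Tapbp, at the edge of the region, had -0.02, and H2-K1, 10 places further in, had 0.61 by its brighter probe. Without array 1, 2 or 3 the number of non-member genes between the ends that were brighter in Cy5 was between 9 and 13.

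**Figure D5:**
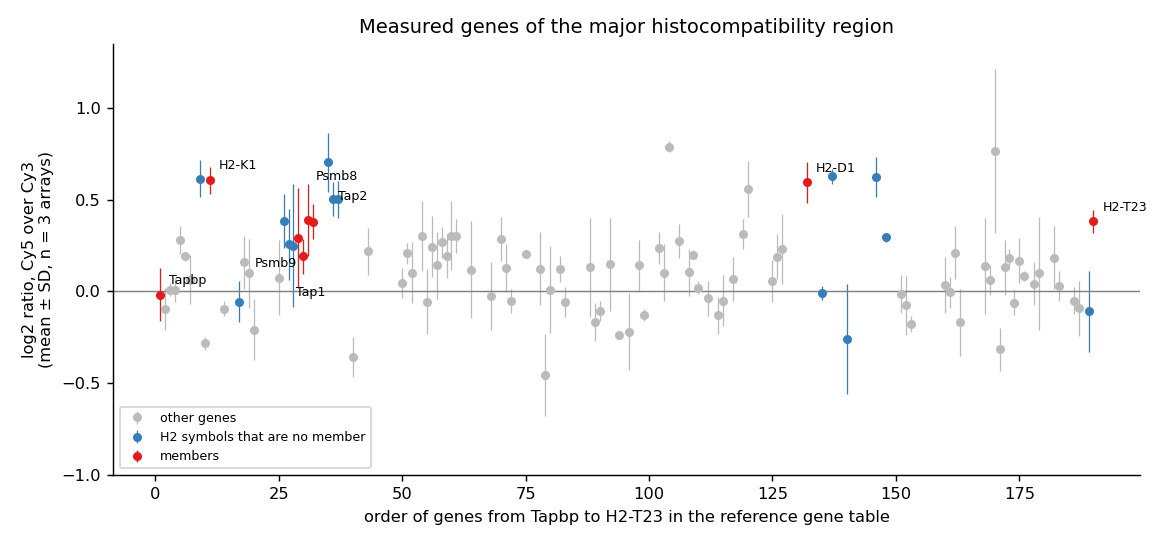
Log2 ratio of Cy5 over Cy3 (y axis, mean and SD of 3 arrays) of the measured genes between Tapbp and H2-T23 by their order along chromosome 17 (x axis, place in the reference gene table), with 1 probe per gene. Members are red, other genes with an H2 symbol blue and the rest grey; members and H2 genes lie mostly above 0, with Tapbp near 0 and H2-Q4 below it.

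Among 16069 named genes, those nearest to H2-K1 in their 3 ratios, by Euclidean distance to its brighter probe, were H2-Q8 (0.028), Ptger4 (0.058), Tuft1 (0.064), H2-K2 (0.065) and Lcat (0.075). Ptger4, a prostaglandin receptor gene, had 0.64, 0.49 and 0.63 on arrays 1, 2 and 3, and H2-Q8 had 0.70, 0.52 and 0.63. With 3 points per gene, nearness says only that these genes had ratios of like size on each array.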

How the data were processed

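RNA of 3 pairs of pups was hybridised to 3 two-colour Agilent arrays, Cy3 wild type and Cy5 Brpf1-deficient, without a dye swap. The deposited scanner files hold median spot and background intensity values in each channel, from Agilent Feature Extraction 10.7.3.1 per the file headers, and a log10 ratio of the software's processed signals, also per the file headers. The authors' deposited table of 40000 spots gives a log2 fold change, p-values and score columns; limma is named in the submitters' processing notes. Its direction is not stated, and its signs are the reverse of Cy5 over Cy3, which a difference taken the other way round would also give.

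Here median signals were corrected with normexp (offset 50) and loess in limma 3.58.1 (R 4.3.3), with control and outlier spots at weight 0. Outlier spots (4 to 6 per array) were left out and the spots of a probe averaged. The filter on dim probes kept 32983 of 55681, those that exceeded background clearly in 1 channel or both on 2 or more of the 3 arrays. An intercept-only limma fit was adjusted by Benjamini-Hochberg over all of them at 0.05 (two-sided). Lists used the brightest probe of each of 23306 genes, fitted separately. Of these, 16871 have a gene name and 6435 are known by accession or probe alone, and shares over all genes include them. Channel levels come from loess and Aquantile scaling.

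Genes were named through RefSeq accessions or, failing that, the authors' deposited table. Members and lists were chosen with earlier results of these data known. Named in the text are all members, at most 4 called genes per list with the smallest adjusted p, partners of the members (H2-Q and H2-T genes, Psmb10, Psme1, Psme2, Calr, Pdia3, Nlrc5, Irf1, H2-Aa, Cd74, Pirb), Brpf1, and the 5 genes most like H2-K1. Some genes that this rule or the lists name are not reported here. Alternatives changed the background correction, normalization, filter, probes per gene and arrays.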

Additional observations from a re-analysis of the deposited data

How the results depend on the processing

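The 10 member probes kept a median between 0.34 and 0.46 over the settings tried. Between 8 and 10 of them were above 0. Leaving out 1 array changed the number of member probes called to between 3 and 7 (6 with all arrays). Tapbp turned to 0.039 with median centring and ran from -0.090 to 0.052 when 1 array was left out (above 0 without array 2), and B2m ran from -0.048 (without array 3) to 0.27 and was 0.33 with median centring. H2-T23 moved to 0.45 with median centring and 0.46 with the processed signals, and Tap2 to 0.55 with the latter. Median centring called 5439 probes brighter in Cy5 and 1322 in Cy3 (80.4% brighter in Cy5 against 44.4% with loess), in the lists 65 and 2 genes, and between the member genes 32 and 1. The processed signals called 677 and 756 probes (47.2% brighter in Cy5), in the lists 10 and 2 genes, and between the members 8 and 0. Leaving out 1 array gave 892 to 2218 probes brighter in Cy5 and 1303 to 3516 in Cy3, 12 to 34 and 6 to 13 genes in the lists, and 9 to 13 and 2 to 5 between the members. Of 33 other genes named as called, 11 stayed called with the processed signals and 13 without array 3. Those that passed under every alternative run were H2-Q2, H2-Q7, H2-Q8, H2-K2, H2-Bl, H2-Ab1, H2-Aa, H2-Eb1, Ifit2, Zap70 and Ly6g6e. Median centring turned Pdia3 to 0.13, Psme1 to 0.18, H2-Q4 to 0.33 and H2-Q1 to 0.030. Leaving out 1 array moved uncalled genes across 0: H2-Q1 ran from -0.030 to 0.0094, H2-T24 from -0.21 to 0.0083, Calr from -0.036 to 0.074 and Nlrc5 from -0.091 to 0.096. The cause of these changes was not tested. Each ratio already pairs the RNA of an array, so no further block was fitted. Probes below background carry no measured ratio.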
